A study of Mus musculus with 12 samples.

Results

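The 10 genes described here encode the receptors through which thrombin, ADP and thromboxane act on platelets, together with enzymes that make thromboxane and related lipids from arachidonic acid. They were taken by symbol from a table of 24107 mouse genes, and all 10 were found: F2r, F2rl2, F2rl3, P2ry1, P2ry12, Tbxa2r, Tbxas1, Ptgs1, Alox12 and Alox5ap. RNA-seq libraries had been made from C57BL/6 mice in 4 groups of 3. Control MEP libraries came from megakaryocyte-erythroid progenitors, the marrow cells that give rise to platelets and red cells, of wild-type mice. Leukemic MEP libraries came from cells labelled as that progenitor, of genotype Prdm16s, taken from recipient mice with leukemia. Control marrow was whole bone marrow of wild-type mice, and GFP+ marrow was GFP+ leukemic cells of genotype Prdm16s from leukemic recipients. Genotype, leukemia and being a recipient coincide in the groups and cannot be told apart, and GFP+ marrow was a selected population whereas control marrow was not. Whether each library is a different mouse is not stated in the labels. The p-values therefore set each difference against the spread between these libraries, and cannot be taken to account for the spread between mice.

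Thrombin cleaves protease-activated receptors, which signal through G proteins. Mouse platelets use the receptors encoded by F2rl2 (PAR3, a cofactor) and F2rl3 (PAR4, the signalling receptor), whereas F2r (PAR1) is the main thrombin receptor of human platelets. ADP acts on platelets through a Gq-coupled receptor, P2ry1, and a Gi-coupled receptor, P2ry12. Thromboxane A2, the product of Ptgs1 (cyclooxygenase 1) followed by Tbxas1 (thromboxane synthase), acts on Tbxa2r. Alox12 is the platelet-type 12-lipoxygenase, and Alox5ap presents arachidonic acid to 5-lipoxygenase at the start of leukotriene synthesis.

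The reads behind each value could be worked back from the deposited FPKM (fragments per kilobase of gene, scaled to sequencing depth, so a level per gene length). Libraries held 6718069 to 9709249 reads in genes, except leukemic MEP replicate 3 with 571698 and GFP+ marrow replicate 2 with 1149737. Leukemic MEP replicate 3 also stood apart from its group. The summed level of 14 neutrophil and granule markers was 100257 FPKM there, against 954 and 2324 in the other leukemic MEP libraries, 27.4 to 400 across control MEP, and 77013 to 131070 across both marrow groups. Megakaryocyte and platelet markers (19 genes) summed to 6695 and 5699 FPKM in leukemic MEP replicates 1 and 2 and to 588 FPKM in replicate 3. Control MEP libraries ranged from 66.6 to 208 FPKM, and marrow libraries from 383 to 870 FPKM, for the same markers. Of these markers Clec1b was at 0 in all control MEP libraries, and Gp6 in all leukemic MEP and all control marrow libraries. Erythroid markers (15 genes) summed to 12304 to 14178 FPKM in control MEP and 662 to 3464 in leukemic MEP. In these bulk libraries fewer cells of a type and less RNA per cell cannot be told apart. Results are given with and without leukemic MEP replicate 3.

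Of the 10 genes, 6 rose in leukemic MEP against control MEP: F2rl2, F2rl3, Tbxa2r, Tbxas1, Ptgs1 and Alox5ap. F2r and P2ry1 were also higher on average but did not pass the test, and P2ry12 and Alox12 were too low to be tested. In GFP+ marrow against control marrow only Tbxa2r passed, and it fell. The change in MEP exceeded the change in marrow for F2rl2, Tbxa2r, Tbxas1, Ptgs1 and Alox5ap.

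These counts are from limma on log2(FPKM + 1) over 11462 genes with at least 1 FPKM in at least 3 libraries, called at a Benjamini-Hochberg adjusted p under 0.05. The 8 tested members reached that level in enough libraries outside leukemic MEP to pass without it. Of all tested genes 26% were called in the MEP comparison, 13.7% as higher, against 6 of the 8 members. The members' median change was 3.38 and that of all tested genes 0.02 on the log2(FPKM + 1) scale. The same 6 genes did not overlap between the groups, with all leukemic MEP libraries higher, as did 21.1% of tested genes. Without leukemic MEP replicate 3 all 8 passed as higher, where 15% of all tested genes did.

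**Figure D1:**
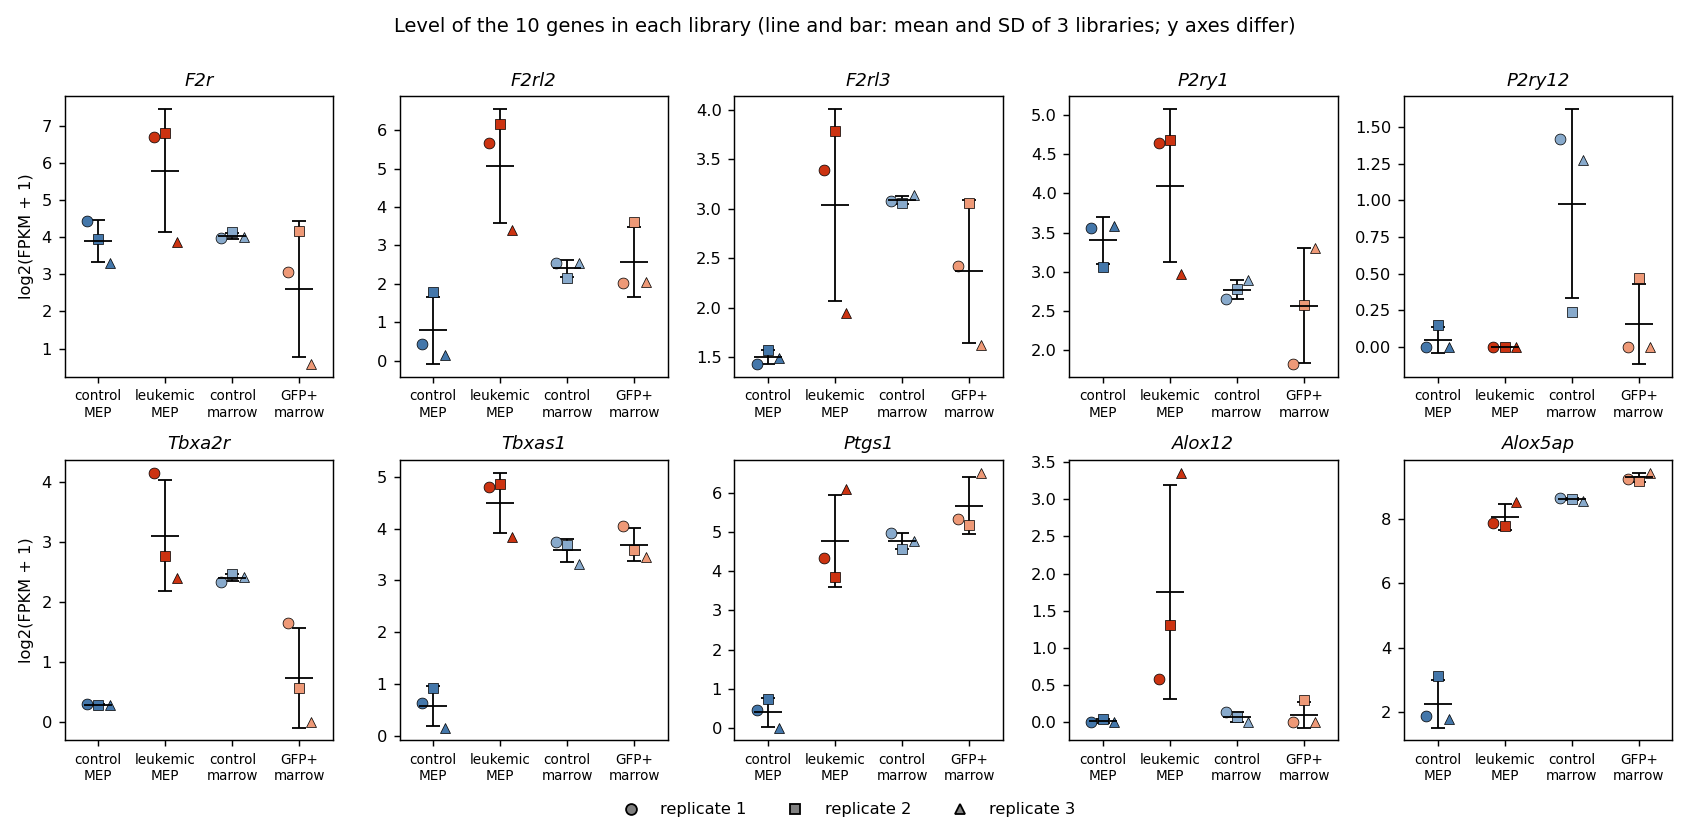
Level of each of the 10 genes in each of the 12 libraries as log2(FPKM + 1), with the mean and SD of each group of 3; marker shape gives the replicate and the y axes differ. In leukemic MEP, replicate 3 (triangle) is the lowest library for F2r, F2rl2, F2rl3, P2ry1, Tbxa2r and Tbxas1 and the highest for Ptgs1, Alox12 and Alox5ap.

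Among the thrombin receptors, F2r stood at 20.6, 14.4 and 8.90 FPKM in control MEP replicates 1 to 3 and at 103, 110.0 and 13.7 FPKM in leukemic MEP. Replicates 1 and 2 of leukemic MEP were far above every control MEP library, while replicate 3 lay within the control range. Its 27 reads there give a 95% exact Poisson interval of 9.04 to 19.95 FPKM, which, like all such intervals here, covers counting error only. The change was 1.90 ± 0.85 (SE) on the log2(FPKM + 1) scale and was not called (limma, adjusted p = 0.124). It was 2.85 with an adjusted p of 0.0126 without leukemic MEP replicate 3, and it was also called with array weights (3.15), with voom on the recovered reads (2.51) and with replicate number as a block (adjusted p = 0.0417). In control marrow F2r held at 14.7, 16.5 and 15.1 FPKM, and in GFP+ marrow it spread over 7.34, 16.9 and 0.501 FPKM. The GFP+ libraries thus lay on both sides of the control level, and the change of -1.43 ± 0.85 was not called (limma, adjusted p = 0.341).

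F2rl2 was nearly absent from control MEP, at 0.349, 2.46 and 0.113 FPKM from 8, 45 and 2 reads. Leukemic MEP libraries reached 49.4, 70.8 and 9.51 FPKM, each above every control MEP library and the last from 14 reads. Mean levels were 43.2 ± 31.1 (SD, n = 3) and 0.973 ± 1.29 FPKM (SD, n = 3), and control MEP replicate 2 sets most of the latter. The change of 4.28 ± 0.68 on the log2(FPKM + 1) scale was called (limma, adjusted p = 0.000752) and held in all 20 alternative analyses. Leaving out leukemic MEP replicate 3 gave 5.12. The control MEP library with the highest F2rl2, replicate 2, also had the highest megakaryocyte marker sum of its group. That was not particular to this list. Replicate 2 also had the highest neutrophil, monocyte, erythroid, lymphoid and eosinophil sums of control MEP, though not the highest basophil or stromal sum. In marrow F2rl2 showed 4.78, 3.46 and 4.85 FPKM in controls and 3.04, 11.3 and 3.16 FPKM in GFP+ cells, overlapping ranges with a change of 0.15 ± 0.68. The difference between the MEP and marrow changes was 4.13 ± 0.96 (limma, adjusted p = 0.0293). That call was lost in 11 of 19 alternatives, with adjusted p-values between 0.0506 and 0.0928.

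F2rl3 was even across control MEP libraries, at 1.71, 1.98 and 1.82 FPKM. In leukemic MEP it was 9.48, 12.8 and 2.85 FPKM, all above control, although the value of replicate 3 rests on 3 reads, with an interval of 0.588 to 8.33 FPKM that reaches below the control levels. The change of 1.54 ± 0.45 was called (limma, adjusted p = 0.0264), but in 8 of 20 alternatives it was not, with adjusted p-values of 0.0543 to 0.105. Leaving out any 1 of leukemic MEP replicates 1 and 2 or of the 3 control MEP libraries was enough (adjusted p = 0.0641 to 0.0848). With leukemic MEP replicate 3 left out, the change was 2.08 (adjusted p = 0.00107). In marrow F2rl3 was 7.45, 7.35 and 7.79 FPKM in controls and 4.34, 7.36 and 2.08 FPKM in GFP+ cells. The top GFP+ library reached the lowest control library, and the change of -0.72 ± 0.45 was not called. F2rl3 was the 1 thrombin receptor that passed the test as lower in control MEP than in control marrow, by -1.59 ± 0.45 (limma, adjusted p = 0.0336). F2rl2 had a like difference of -1.62 ± 0.68, also with ranges apart, but was not called (limma, adjusted p = 0.142).

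Summed over F2r, F2rl2 and F2rl3, the level was 17.4 ± 6.01 FPKM (SD, n = 3) in control MEP and 127 ± 89.0 FPKM in leukemic MEP. The leukemic MEP libraries gave sums of 162, 194 and 26.1 FPKM. F2rl2 made up 30.5 to 36.6% of that sum in leukemic MEP, against 1.05 to 13.03% in control MEP. The share in leukemic MEP replicate 3 was thus like that of its group even though its sum was not. That share is loosely fixed, as it rests on 27, 14 and 3 reads of F2r, F2rl2 and F2rl3. The range of the F2rl2 share in control marrow was 12.7 to 17.8% and in GFP+ marrow 20.7 to 55.1%. F2r was the largest of the 3 in every library except GFP+ marrow replicate 3, where it made up 8.74%.

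**Figure D2:**
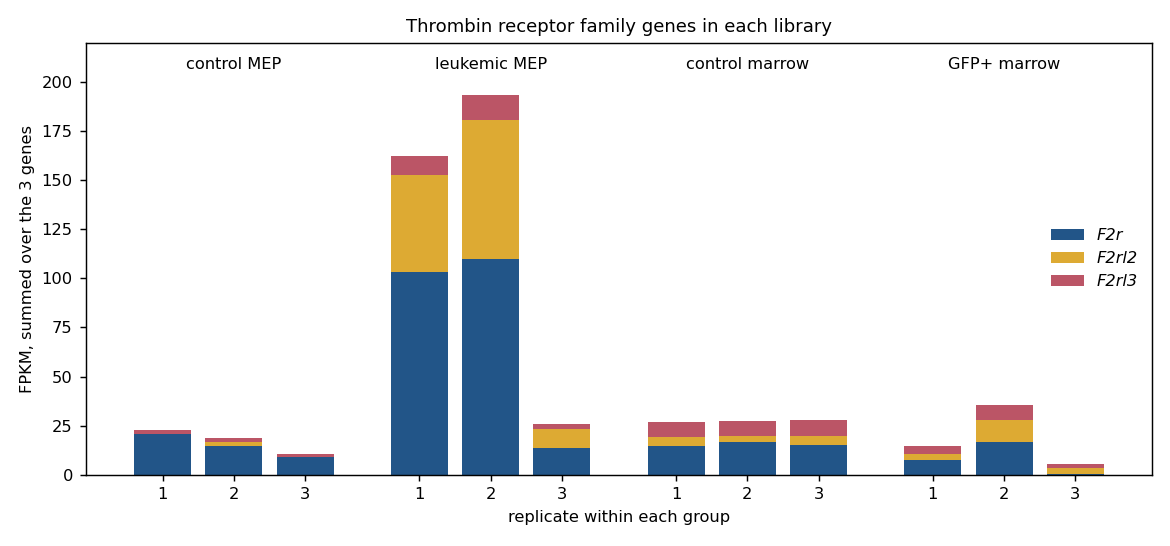
FPKM of F2r, F2rl2 and F2rl3 stacked for each of the 12 libraries, grouped by sample type. The bars of leukemic MEP replicates 1 and 2 reach 162 and 194 FPKM and that of replicate 3 reaches 26.1 FPKM; F2rl2 fills at least 30.5% of each.

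The 250 bases before the RefSeq start (build GRCm38.p6) of these 3 receptors are shown because 2 of them, F2r and F2rl2, lie near each other on chromosome 13 and all 3 were highest on average in leukemic MEP. Capitals mark matches, on either strand, to 3 short motifs recognised by factors of megakaryocyte development: AGATAA for GATA factors, AGGAAG for ETS factors and TGTGGT for RUNX factors. F2r occupies chr13:95618467-95618716 on the minus strand, F2rl2 chr13:95696670-95696919 on the plus strand and F2rl3 chr8:72761409-72761658 on the plus strand, each printed 5′ to 3′.
F2r: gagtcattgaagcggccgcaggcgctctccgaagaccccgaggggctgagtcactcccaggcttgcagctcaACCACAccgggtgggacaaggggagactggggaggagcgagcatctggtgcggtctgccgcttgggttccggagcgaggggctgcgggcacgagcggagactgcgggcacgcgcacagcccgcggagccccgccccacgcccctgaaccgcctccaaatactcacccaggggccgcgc
F2rl2: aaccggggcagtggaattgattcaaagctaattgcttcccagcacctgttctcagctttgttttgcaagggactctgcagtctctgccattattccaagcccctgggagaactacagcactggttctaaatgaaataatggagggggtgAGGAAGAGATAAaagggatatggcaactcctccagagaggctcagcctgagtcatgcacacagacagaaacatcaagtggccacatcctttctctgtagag
F2rl3: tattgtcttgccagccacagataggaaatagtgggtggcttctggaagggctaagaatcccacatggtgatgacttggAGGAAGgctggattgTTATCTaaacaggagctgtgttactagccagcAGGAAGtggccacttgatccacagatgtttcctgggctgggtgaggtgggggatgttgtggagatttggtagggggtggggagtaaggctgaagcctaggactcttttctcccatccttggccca

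F2rl2 has the ETS and GATA motifs side by side, beginning 101 and 95 bases before the start. F2rl3 has the GATA motif on the other strand at 157 bases and the ETS motif at 172 and 125 bases before the start, and F2r has only the RUNX motif, at 178 bases. Over all 32851 RefSeq windows of this length, 9.99% held the GATA motif, 29.5% the ETS motif and 14.05% the RUNX motif. Among 10 windows of 9 of the genes, 2 held the GATA motif, 6 the ETS motif and 1 the RUNX motif. A match is a description of the letters and not of binding.

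Of the ADP receptors, P2ry1 was detected in every library. It was 10.7, 7.35 and 11.0 FPKM in control MEP and 24.0, 24.6 and 6.87 FPKM in leukemic MEP. As with F2r, replicates 1 and 2 of leukemic MEP were above the control range and replicate 3, from 16 reads, was not. The change of 0.70 ± 0.46 was not called (limma, adjusted p = 0.286), and without replicate 3 it was 1.26 with an adjusted p of 0.0217. Control marrow was 5.29, 5.87 and 6.42 FPKM and GFP+ marrow was 2.55, 4.99 and 8.84 FPKM, so the GFP+ libraries spanned the control values. P2ry1 was the only 1 of the 10 genes whose control MEP libraries all lay above all control marrow libraries, as did 20.3% of tested genes, but that difference of 0.62 ± 0.46 was not called (limma, adjusted p = 0.428).

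P2ry12 was at 0 reads in all 3 leukemic MEP libraries. A count of 0 allows up to 3 reads, which are 0.112 and 0.153 FPKM in replicates 1 and 2 and 2.09 FPKM in the shallow replicate 3. Control MEP held 2 reads in replicate 2 and none in the others, and GFP+ marrow held 1 read in replicate 2 and none in the others. It was seen mainly in control marrow, at 1.67, 0.180 and 1.43 FPKM from 30, 4 and 27 reads. With 2 of 12 libraries at 1 FPKM or more, P2ry12 was not tested.

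P2ry12 lies inside Med12l, a Mediator kinase-module gene, on the opposite strand, as do the related receptor genes P2ry13, P2ry14 and Gpr171. Smart-seq2 does not mark strand, so reads over such overlaps cannot be assigned to 1 gene with certainty. In leukemic MEP, Med12l rose by 1.48 ± 0.26, P2ry14 (a UDP-sugar receptor) by 1.86 ± 0.38 and Gpr171 by 4.17 ± 0.41 (limma, adjusted p = 0.00143, 0.00389 and 2.38e-05). P2ry13, another ADP receptor, gave 1.32 ± 0.49 (limma, adjusted p = 0.0659) and reached 5.30 FPKM in leukemic MEP replicate 3 against 0.320 and 1.07 FPKM in the other 2. Igsf10, S100z and F2rl1, other neighbours of the P2ry12 and F2r clusters, stayed below the filter. Iqgap2, a scaffold gene that contains F2rl2 on the other strand, was 8.74, 5.51 and 7.41 FPKM in control MEP and 6.12, 8.32 and 4.50 FPKM in leukemic MEP, a change of -0.18 ± 0.28 that was not called. In GFP+ marrow Iqgap2 fell by 1.14 ± 0.28 (limma, adjusted p = 0.0242).

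Tbxa2r, the thromboxane receptor, was the only member called in both MEP and marrow, and its changes had opposite directions. F2r, F2rl3 and P2ry1 also had a higher mean in MEP and a lower mean in marrow, but none of them was called in marrow. Control MEP was at 0.220, 0.207 and 0.215 FPKM, from 4, 3 and 3 reads, and leukemic MEP at 16.8, 5.78 and 4.30 FPKM, the last from 5 reads. All leukemic MEP libraries lay above control MEP, and the change of 2.83 ± 0.47 was called (limma, adjusted p = 0.000984). Without leukemic MEP replicate 3 it was 3.18 (adjusted p = 0.00035). No linear fold is given against so few reads. In marrow the controls were 4.05, 4.49 and 4.30 FPKM, and GFP+ cells were 2.12, 0.475 and 0 FPKM from 27, 1 and 0 reads. Every GFP+ library was below every control library, and the fall of -1.67 ± 0.47 was called (limma, adjusted p = 0.0448). The call was lost in 12 of 20 alternatives (adjusted p up to 0.138). Over all tested genes 9.05% were called in marrow, 3.02% as higher and 6.03% as lower, and for 19.6% every GFP+ library was below every control library. The difference of the changes was 4.49 ± 0.66 (limma, adjusted p = 0.00242) and held in all 19 alternatives.

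Tbxa2r was also the 1 member called between leukemic MEP and GFP+ marrow, 2.37 ± 0.47 higher in leukemic MEP (limma, adjusted p = 0.0225), where 0.977% of all tested genes were called higher and 3.05% in either direction. Those shares are from the main fit. Without leukemic MEP replicate 3, all 8 tested members were called in that comparison, 6 higher and 2 lower in leukemic MEP. The share of all tested genes in that fit is not given here, so this count has no background beside it. With only leukemic MEP and GFP+ marrow in the fit no member was called, nor was any other gene. Other scalings shift the background of that comparison: with libraries set to equal FPKM totals, 502 genes were called higher and 132 lower, against 112 and 238 as deposited.

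Tbxas1, which turns the product of cyclooxygenase into thromboxane, was at 0.546, 0.897 and 0.111 FPKM in control MEP and at 27.0, 28.1 and 13.3 FPKM in leukemic MEP. The groups were far apart, with mean levels of 0.518 ± 0.394 and 22.8 ± 8.25 FPKM (SD, n = 3). The change of 3.93 ± 0.33 was called (limma, adjusted p = 8.18e-06). In marrow the controls were 12.3, 11.9 and 9.02 FPKM and the GFP+ libraries 15.5, 11.0 and 9.93 FPKM, overlapping with a change of 0.11 ± 0.33 and a 95% interval of -0.61 to 0.83. The annotated gene overlaps Hipk2 on the other strand.

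Ptgs1, cyclooxygenase 1, was at 0.375, 0.657 and 0 FPKM in control MEP and at 19.2, 13.6 and 67.8 FPKM in leukemic MEP. Here leukemic MEP replicate 3 was the highest of its group, at 4.13 times the mean of the other 2. The change of 4.37 ± 0.51 was called (limma, adjusted p = 8.43e-05), and without that library it was 3.71 with an adjusted p of 1.98e-05. Control marrow stood at 30.3, 22.8 and 26.3 FPKM and GFP+ marrow at 39.3, 35.2 and 90.6 FPKM. Each GFP+ library was above each control library, as for 17.6% of tested genes, yet the change of 0.91 ± 0.51 was not called (limma, adjusted p = 0.312). The difference of changes was 3.47 ± 0.72 (limma, adjusted p = 0.0175), and it was lost when control MEP replicate 3 (3.27, adjusted p = 0.0602) or control marrow replicate 1 (3.37, adjusted p = 0.0569) was left out.

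Alox5ap, the gene with the highest level of the 10 in leukemic MEP, was at 2.65, 7.69 and 2.48 FPKM in control MEP and at 232, 219 and 362 FPKM in leukemic MEP. The change of 5.79 ± 0.32 was called (limma, adjusted p = 6.17e-07), and no library of 1 group came near the other. Control marrow was 394, 390.3 and 375 FPKM and GFP+ marrow 603, 572 and 681 FPKM. These groups did not overlap either, and the change of 0.67 ± 0.32 was not called (limma, adjusted p = 0.225). It was called with voom on reads (0.69, adjusted p = 0.0269) and when only the 2 marrow groups were fitted (adjusted p = 0.0124). The difference of changes was 5.11 ± 0.45 (limma, adjusted p = 0.000172).

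Alox12 was almost unread outside leukemic MEP: control MEP held 0, 1 and 0 reads, control marrow 3, 2 and 0, and GFP+ marrow 0, 1 and 0. The leukemic MEP libraries held 22, 48 and 22 reads, which are 0.495, 1.47 and 9.23 FPKM. All 3 lay above every other library. The shallow replicate 3 was 9.39 times the mean of the other 2, with a 95% exact Poisson interval of 5.79 to 13.98 FPKM. In GFP+ marrow replicate 2, also shallow, the 1 read is 0.232 FPKM. Its interval, 0.00588 to 1.29 FPKM, covers the level of leukemic MEP replicate 1. Only 2 libraries reached 1 FPKM, so Alox12 was not tested.

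Marker lists of blood cells differed in how many of their genes were called in leukemic MEP. Neutrophil and granule markers were called higher in leukemic MEP for 8 of 14 genes, and for 8 of 14 without replicate 3, where 13.7% and 15% of all tested genes were. The sum for replicates 1 and 2 was 954 and 2324 FPKM against 27.4 to 400 in control MEP. Megakaryocyte markers were called higher for 14 of 18 tested genes, and for 18 of 18 without replicate 3. Monocyte and macrophage markers were called higher for 2 of 14 genes in both fits, and eosinophil markers for 1 of 7, a call that was lost without replicate 3. B lymphoid markers were called higher for 1 of 9 tested genes, and T and NK markers for 2 of 9, in both fits. Of 15 erythroid markers 10 were called lower and 1 higher, and 8 lower and 2 higher without replicate 3. Basophil and mast cell markers were called higher for 6 of 10 genes, and for 7 of 10 without replicate 3. The latter summed to 425 to 771 FPKM in leukemic MEP and 88.6 to 171 in control MEP, with Tpsb2 and Cma1 at 0 in all libraries of both groups. The part of these cell types in the results was not tested. Without leukemic MEP replicate 3 the changes of Tbxas1, Ptgs1 and Alox5ap were 4.27, 3.71 and 5.56.

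**Figure D3:**
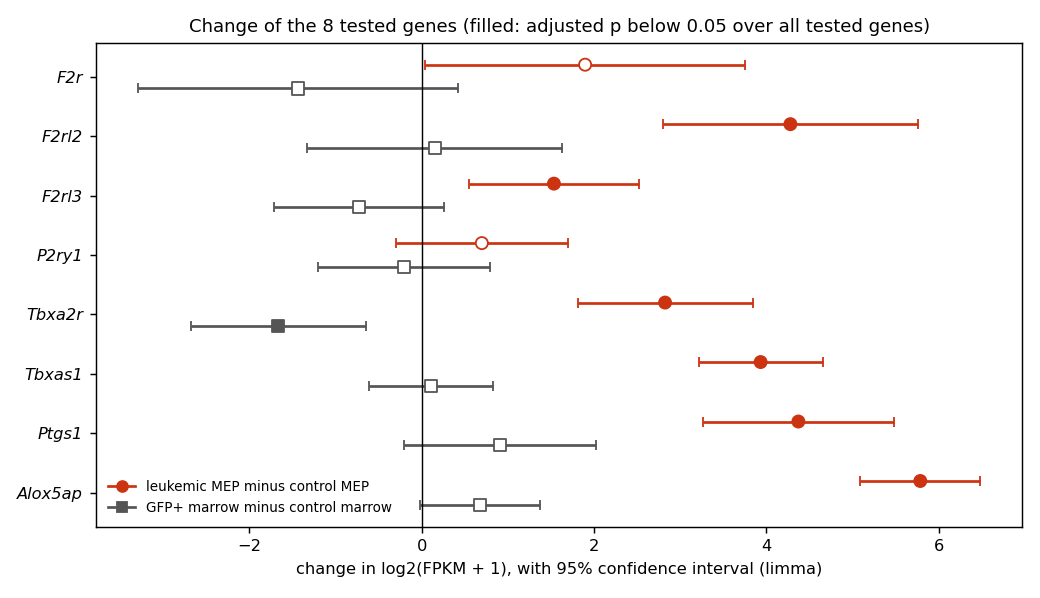
Change in log2(FPKM + 1) with its 95% confidence interval for the 8 tested genes, leukemic MEP minus control MEP (circles) and GFP+ marrow minus control marrow (squares); filled symbols passed the test. In MEP 6 symbols are filled, all above 0, and in marrow 1, Tbxa2r at -1.67.

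Set side by side, the MEP and marrow changes differed for 5 of the 8 tested members, all in the direction of a larger change in MEP. Over all tested genes 4.89% were called for this difference, 4.52% as higher. F2r (3.33 ± 1.21, adjusted p = 0.168), F2rl3 (2.26 ± 0.64, adjusted p = 0.0699) and P2ry1 (0.90 ± 0.65, adjusted p = 0.519) were not called by limma. Without leukemic MEP replicate 3 there were 7 calls, P2ry1 being the exception (adjusted p = 0.0846), against 7.63% of all genes. The members' median difference was 3.64, and that of all genes 0.04.

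In the wild-type groups, control MEP was lower than control marrow for F2rl3, Tbxa2r, Tbxas1, Ptgs1 and Alox5ap, 5 of 8 tested, where 15% of all tested genes were called, 2.63% as higher and 12.3% as lower. The largest differences on this scale were -6.34 ± 0.32 for Alox5ap, -4.37 ± 0.51 for Ptgs1 and -3.01 ± 0.33 for Tbxas1 (limma, adjusted p = 1.36e-06, 0.000109 and 7.03e-05). F2r was level between them, at means of 14.6 ± 5.83 and 15.4 ± 0.953 FPKM (SD, n = 3). The MEP changes and this comparison share the control MEP libraries.

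Ordered by mean level, leukemic MEP was the highest group for F2r, F2rl2, F2rl3, P2ry1, Tbxa2r, Tbxas1 and Alox12. Of these, only for Alox12 did its range clear that of the next group. That separation rests on few reads, as the 1 read in GFP+ marrow replicate 2 has an interval up to 1.29 FPKM. GFP+ marrow was highest for Ptgs1 and Alox5ap, and control marrow for P2ry12. Control MEP was lowest for F2rl2, F2rl3, Tbxa2r, Tbxas1, Ptgs1, Alox12 and Alox5ap.

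Downstream of the receptors, 15 of 32 tested G protein signalling genes rose in leukemic MEP and 2 fell, with a median change of 0.81, where 13.7% of all tested genes rose and 12.3% fell. Rasgrp2, the exchange factor that activates Rap1 in platelets, went from 0.852, 2.53 and 1.06 FPKM in control MEP to 38.5, 23.7 and 105 FPKM, a change of 4.30 ± 0.43. Plcb2, a phospholipase C activated by Gq, changed by 3.39 ± 0.59, and Tln1, the talin that activates integrins, by 1.70 ± 0.29 (limma, adjusted p = 2.42e-05, 0.00146 and 0.00111 in this order). The genes that fell were Rgs10, a brake on G protein signalling (-1.96 ± 0.37), and Arhgef12, a guanine nucleotide exchange factor (-0.79 ± 0.25). Rgs18, another RGS gene of the list, went the other way. It was at 29.0, 28.2 and 23.9 FPKM in control MEP and at 599, 793 and 81.1 FPKM in leukemic MEP. Without leukemic MEP replicate 3, 17 rose and 2 fell, where 15% of all tested genes rose. In marrow Gng11, a G protein gamma subunit, was the 1 called gene of the list and fell by 2.82 ± 0.63 (limma, adjusted p = 0.0153). For 5 genes of the list the MEP change exceeded the marrow change, and those with the smallest p were Rasgrp2, Gng11 and Prkca (protein kinase C alpha), at 3.65, 5.04 and 1.89, and Rgs10 went the other way at -2.30. Leukemic MEP exceeded GFP+ marrow for Prkcq and Prkca, by 2.19 ± 0.38 and 1.32 ± 0.27.

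In the list of other eicosanoid synthesis genes, 1 of 13 tested rose in leukemic MEP, a share below the 13.7% of all tested genes, and 4 did without replicate 3, where that share was 15%. The 1 gene was Alox5, the 5-lipoxygenase that Alox5ap serves. It went from 2.16, 1.57 and 2.20 FPKM in control MEP to 34.1, 39.1 and 25.2 FPKM (3.49 ± 0.25, limma, adjusted p = 2.60e-06). In marrow Alox5 fell from 37.5, 24.4 and 36.6 FPKM to 11.7, 10.2 and 13.1 FPKM (-1.40 ± 0.25, limma, adjusted p = 0.00424), where Alox5ap, with a change of 0.67, was not called. The Alox5 level was 81.4, 20.5 and 88.6% of the Alox5ap level in control MEP. It was 6.97 to 17.8% of it in leukemic MEP, below every control MEP library, 6.25 to 9.75% in control marrow and 1.79 to 1.95% in GFP+ marrow. Hpgds, the hematopoietic prostaglandin D synthase, fell in marrow by 2.53 ± 0.33 (limma, adjusted p = 0.000648). Mgst2, a leukotriene C4 synthase relative, was lower in leukemic MEP than in GFP+ marrow (-4.31 ± 1.02, limma, adjusted p = 0.0434), but leukemic MEP replicate 3 held 120 FPKM against 2.54 and 2.24 in the other 2.

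Of the other agonist and inhibitory receptors of platelets, 5 of 13 tested rose in leukemic MEP and none fell, and 6 rose without replicate 3, against 13.7% and 15% of all tested genes. P2rx1, the ATP-gated channel of platelets, went from 0.333, 0.834 and 0 FPKM to 12.8, 12.9 and 8.44 FPKM (3.18 ± 0.38, limma, adjusted p = 9.92e-05). P2rx1 differed less over the 3 leukemic MEP libraries than F2r and P2ry1 did, although its value in replicate 3 rests on 13 reads. Gpr171 and P2ry14 were the other 2 with the smallest p. For the difference of changes the smallest p in the list were those of Gpr171 (4.42), P2rx1 (3.22) and Adora2a, an inhibitory adenosine receptor (3.78). P2ry6, a UDP receptor, was at 0 in all MEP libraries and fell in GFP+ marrow, from 3.004, 3.21 and 1.86 FPKM to 0, 0.483 and 0 FPKM (-1.67 ± 0.26, limma, adjusted p = 0.00168). Ptafr, the receptor for platelet-activating factor, and P2ry2 were lower in leukemic MEP than in GFP+ marrow, by -2.87 ± 0.54 and -1.65 ± 0.30. Among eicosanoid receptors 1 of 7 tested rose in leukemic MEP, a share close to the 13.7% of all tested genes. It was Cysltr2, a cysteinyl leukotriene receptor (1.67 ± 0.40, limma, adjusted p = 0.0100), and 2 rose without replicate 3.

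**Figure D4:**
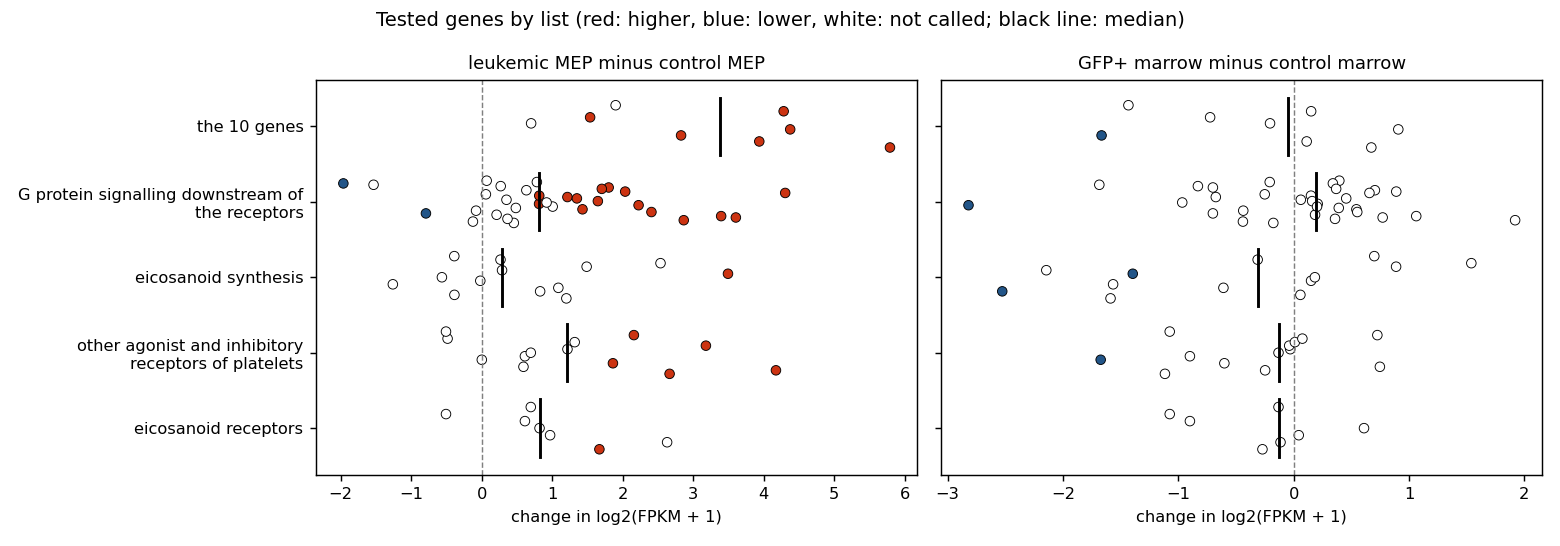
Change in log2(FPKM + 1) of every tested gene of the set and of 4 lists of related genes, for MEP (left) and marrow (right); red points were called higher, blue lower, white not called, and black lines are medians. In MEP the line of the 10 genes' 8 tested members is at 3.38 and that of the G protein list at 0.81; in marrow those lines are at -0.05 and 0.19.

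Genes whose level followed a member most closely over the 12 libraries were sought among 6763 genes with a mean of at least 10 FPKM in some group, by Pearson's r of log2(FPKM + 1). The libraries share groups and depth, and r is a description. F2rl2 was closest to Dok2 (r = 0.961), Gp1bb, a subunit of the platelet receptor for von Willebrand factor (0.945), and Mycn (0.940). Among the genes closest to Tbxa2r were Lgals4 (0.913) and Adgrg1 (0.897). F2rl3 was closest to Hbq1b (0.951), Tle6 (0.940) and Hbb-b2 (0.922), and F2r to Cavin1 (0.952), Gstt1 (0.937) and Emd (0.929). P2ry1 had Gse1 (0.904), Aldh1a1 (0.898) and Fbxo9 (0.881). The synthesis genes had other neighbours: Tbxas1 had Bin2 (0.988), the chemokine receptor gene Cxcr2 (0.982) and Tmem176b (0.982). Ptgs1 had Cyth4, Arpc1b and Arhgef6 (each 0.993), and Alox5ap had Cd300a (0.996), Rab31 (0.994) and Ms4a3 (0.993). Among the members, r was 0.972 between Ptgs1 and Alox5ap, 0.671 between F2r and F2rl2, and -0.076 between F2r and Alox5ap, all over 12 libraries.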

How the data were processed

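Smart-seq2 RNA-seq of 12 mouse libraries in 4 groups of 3 was used. The deposited table gives FPKM, as computed by the authors. Named in the submitters' processing notes are CASAVA, bcl2fastq, STAR 2.5.3a, DESeq2 1.18.1 and mm10. Neither the read counter nor the annotation is given in the sources used here. The values of all 16728 genes above 0 came out as whole reads over a whole gene length (tolerance 0.02), which gave the depths and read counts, and 100% of these genes were recovered.

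Values were analysed with limma 3.58.1 in R 4.3.3 (limma-trend on log2(FPKM + 1), pseudocount 1, all groups fitted together with 8 residual degrees of freedom), and with Python 3.11.15. A fold on this scale understates the change of low genes. An exact permutation test of 3 against 3 libraries could not go below a 2-sided p of 0.1. The members and gene lists were chosen with earlier results of these data known. Named were all members, up to 3 called genes per list, comparison and direction by smallest p, all neighbours of the receptor clusters, and the 3 genes most like each member. A few genes that this rule names are not reported here. Single markers named, and Rgs18, were chosen after their values were seen. Positions, strands and promoters are from RefSeq GRCm38.p6, in which 9 of 10 members had a promoter. The fit and the read recovery were tested on simulated data. Alternatives were another pseudocount, no filter, other scalings, array weights, voom on the recovered reads, a replicate block, fits of 2 groups, and leaving out each library.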

Additional observations from a re-analysis of the deposited data

Results flagged for a closer look

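The change from control to leukemic MEP differed from the change from control to GFP+ marrow, by the interaction term of the limma fit (adjusted over 11462 genes), for 5 members. Of all tested genes 4.89% were called for this difference, 4.52% as higher. On the log2(FPKM + 1) scale the difference was 4.13 for F2rl2, 4.49 for Tbxa2r, 3.82 for Tbxas1, 3.47 for Ptgs1 and 5.11 for Alox5ap. All 3 leukemic MEP libraries were above all 3 control MEP libraries for each of these genes, as for 21.1% of all tested genes. The difference of changes uses the same libraries, so this is not separate evidence.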

How the results depend on the processing

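Each count of called members was recomputed under 20 alternatives (19 for the difference of changes). No member's call reversed in direction. In MEP, where 6 members were called, counts ran from 5 to 8, and leaving out single libraries gave 5 to 8. In marrow, where 1 was called, pseudocount 0.1, no filter and quantile normalization gave 0, array weights and a fit of the 2 groups gave 2, voom gave 3, and leaving out single libraries gave 0 to 1. For the difference of changes, where 5 were called, array weights gave 8 and leaving out single libraries gave 3 to 7. For leukemic MEP against GFP+ marrow, where 1 was called, pseudocount 0.1, no filter and the fit of the 2 groups gave 0, equal FPKM totals gave 4, array weights and voom gave 8, and leaving out single libraries gave 0 to 8. Between the control groups, where 5 were called, counts ran from 4 to 7. Calls over all tested genes also shifted between alternatives, and their splits for some are given below. The counts alone do not show a shift particular to the members. The causes of these shifts were not tested. With voom the changes of F2rl2, Tbxa2r, Tbxas1 and Ptgs1 in MEP were 6.64, 5.33, 5.97 and 6.57, and with pseudocount 0.1 that of Tbxa2r was 4.59.

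Equal FPKM totals moved the median of all genes to -0.25 in marrow, 0.25 for the difference of changes, 0.36 for leukemic MEP against GFP+ marrow and 0.18 between controls, and quantile normalization moved the last to 0.26 and the difference of changes to -0.15. Called genes in marrow split 346 higher to 691 lower as deposited, 195 to 844 with equal totals and 457 to 602 with quantile normalization; between controls the split was 302 to 1414, 592 to 1326 and 724 to 1084, and for the difference 518 to 42, 702 to 17 and 312 to 72.

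With replicate number as a block, 7 members were called in MEP, 1 in marrow, 5 for the difference, 3 for leukemic MEP against GFP+ marrow and 5 between controls. The labels do not say that a number marks shared mice. Same-numbered control and leukemic MEP libraries did not deviate together (r = -0.157, -0.052 and -0.153), nor did the marrow libraries (0.017, -0.062 and 0.020). For control MEP and control marrow the values were 0.497, 0.285 and 0.073, so not every pair was over 0.1. Deviations from the group mean in each leukemic MEP library correlated best with those of the same-numbered GFP+ library (0.086, 0.215 and 0.149). This is a hint from the data and not from the design, and 0.086 is also under 0.1. By level rather than deviation, leukemic MEP replicate 3 correlated best with GFP+ marrow replicate 1 (0.904, against 0.871 with replicate 3). Depth limits leukemic MEP replicate 3, where F2rl3 and Tbxa2r rest on 3 and 5 reads.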
